A study of Mus musculus with 2 samples.

Results

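The clustered protocadherin genes are 57 protein-coding genes on mouse chromosome 18 that lie in 3 neighbouring clusters named alpha, beta and gamma. They were taken by symbol from the GRCm38 RefSeq table, which gave 14 alpha, 22 beta and 21 gamma members of 21887 protein-coding genes. Accessible sites were examined in the clusters and 100 kb around them. The data were ATAC-seq peak lists, in which the Tn5 transposase marks open chromatin, from 2 libraries of mouse cells that the labels call GSC. Both libraries, replicate 1 and replicate 2, carried the Stag3 KO genotype and the Acrosin-EGFP and beta-Actin-EGFP (AAG) reporters, and reporter-positive viable cells were sorted for them. Stag3 encodes a subunit of cohesin, the ring complex that folds chromosomes into loops. The wild-type cells that the design text names as the comparison were not analysed here, so no value below is an effect of the knockout. Nothing in the labels tells whether the replicates were grown apart, and differences between them may be technical.

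Clustered protocadherins are cell-surface adhesion proteins, best known from neurons, where each cell reads a small set of the genes and so gains a surface identity. In the alpha and gamma clusters each gene has its own first exon, called the variable exon, with its own promoter, and this exon is spliced to last exons that all genes of the cluster share. Beta genes have single exons and no shared part. The last genes of the alpha and gamma clusters, called C type, are known to be read more evenly across neurons than the others. Promoter choice is known to depend on the insulator protein CTCF and cohesin, which bind at many of these promoters, at alpha genes also inside the variable exon, and at distant enhancers. The gene models, which give no exons, showed the separate starts and the shared or separate ends of this structure. The 14 alpha models began a median of 7440 bp apart and ended within 1240 bp of each other. The 21 gamma models began a median of 5369 bp apart and ended within 10 bp of each other, while the 22 beta models were 2340 to 5271 bp long and had 22 separate ends. A further 3 models, Gm37013, Gm38666 and Gm38667, run from near alpha starts to the gamma end and were not counted as members.

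A peak's fold enrichment is the ratio of its summit to the background as the authors' peak caller gave it, and its tags are the reads stacked at the summit, recovered from the fold and the p-value. A region was called shared when a replicate 1 peak overlapped a replicate 2 peak by at least 1 bp. The clusters with their 100 kb flanks held 94 of the 83732 shared regions of the series. The lists held 107331 peaks in replicate 1 and 98986 in replicate 2, and the median peak had 40 tags and 41 tags. The defining genes of germline stem cells and spermatogonia had a peak within 1000 bp of the start in both libraries in 12 of 12 cases, led by Id4, Sall4, Etv5 and Ddx4. Their folds ran from 4.08 to 21.0 in replicate 1 and from 2.79 to 23.3 in replicate 2, lowest at Nanos2. Where no strand was given, for 3 of these genes and for 3, 6 and 4 of the next lists in turn, either end of the gene was used. Neuron markers had one in 7 of 8, feeder and Sertoli cell markers in 6 of 10, and endothelial and blood markers in 2 of 7, against 62.5% of all protein-coding genes at the start and 65.8% at either end. An accessible start is not expression, so these counts do not show which cells were present.

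Shared regions covered more of each of the 3 clusters than of the zones between and beside them. The alpha cluster, at 36930285 to 37188897 of chromosome 18, held 31 shared regions, which covered 5.04% of it. The beta cluster, at 37264998 to 37521419, held 22, which covered 3.23%, and the gamma cluster, at 37661775 to 37841873, held 29, which covered 7.47%. Over chromosome 18, from its first to its last gene, shared regions covered 1.41%. No test was made of these shares, since regions of a cluster are not replicates. The 100 kb before the alpha cluster held no shared region, and neither library had a peak in the 99.9 kb that end just before Pcdha1. The gap from alpha to beta held 2 shared regions that covered 0.873% of it. The gap from beta to gamma held 5 that covered 2.21%, and the 100 kb after gamma held 5 that covered 2.69%, both above the share of the chromosome. A stretch of 98.3 kb that begins inside Pcdhb22 and runs into the gap after it had no peak in either library. Inside the clusters the longest stretches with no peak in either library were 67.1 kb between Pcdha12 and Pcdhac1, 54.1 kb that hold the start of Pcdhb9, and 51.2 kb between Pcdhac1 and Pcdhac2.

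**Figure D1:**
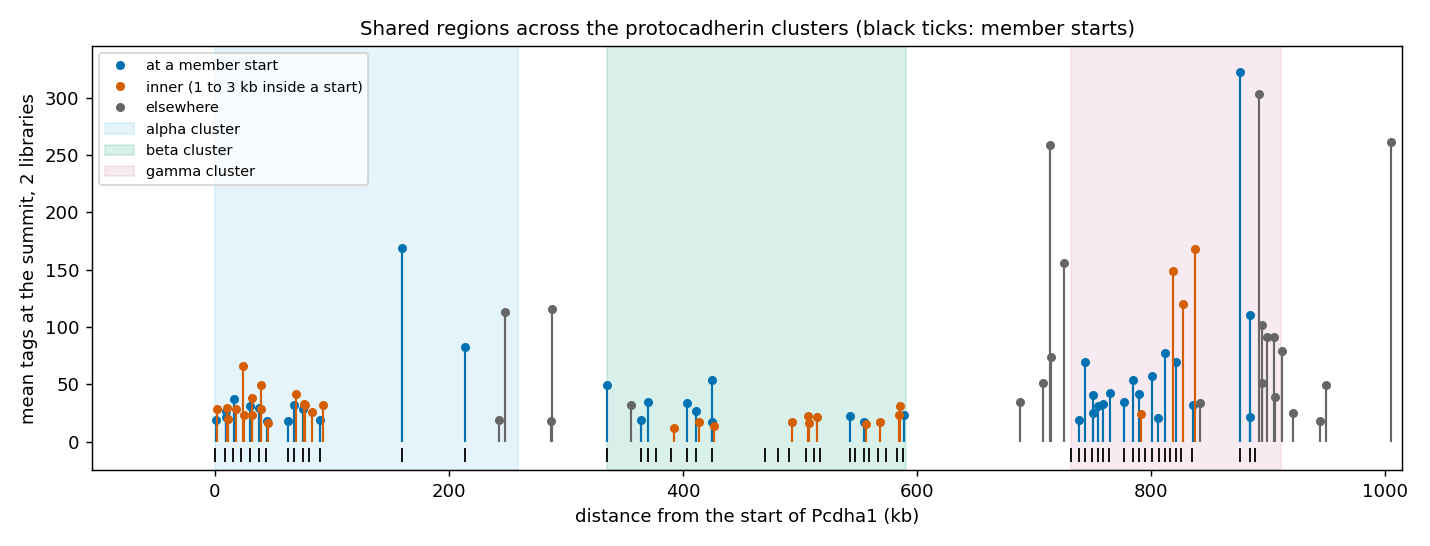
Shared regions along the clusters: the horizontal axis is the distance from the start of Pcdha1 in kb and the vertical axis the tags at the summit, as the mean of both libraries. Blue marks regions at a member's start, orange those 1000 to 3000 bp inside a start and grey all others, the shaded bands are the clusters, and the tallest bar is Pcdhgc3, with 292 tags in replicate 1 and 352 in replicate 2.

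Regions in the clusters were numerous and mostly low. Median fold of the shared regions was 6.25 in replicate 1 and 5.89 in replicate 2 in the alpha cluster, 6.34 and 5.44 in the beta cluster, and 8.40 and 8.09 in the gamma cluster, against 10.9 and 10.6 over all shared regions. Median tags were 32 and 24 in alpha, 24 and 18 in beta, and 57 and 49 in gamma, against 52 and 51 over all shared regions. Fold is relative to the background that the peak caller used for each peak. This background had a median of 3.96 tags in replicate 1 and 3.68 in replicate 2 at alpha regions, 2.53 and 2.13 at beta regions, and 5.18 and 5.70 at gamma regions, so a given fold stood for the most tags in gamma and the fewest in beta. Its lowest value, 2.19 in replicate 1 and 2.13 in replicate 2, recurred exactly at regions far apart. At such regions it acted as a floor and was not measured around the peak. The beta median in replicate 2 was this floor, so equal folds there stand for equal tags. Peaks seen in 1 library alone made up 22.5% of replicate 1 peaks and 10.5% of replicate 2 peaks in alpha, 35.3% and 8.33% in beta, and 17.1% and 6.25% in gamma, against 22.0% and 15.1% in the series.

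The gene start was the first position of interest, since each variable exon has its own promoter. The reference tables gave no strand on this chromosome. The end of the model that differs between members was taken as the start in alpha and gamma. For beta, whose ends all differ, either end was counted by the planned rule, and the lower-coordinate end was added after the data were seen, since the mouse clusters are known to be read in 1 direction. A start peak is a shared region of which any part lies within 1000 bp of this start. It was present at 12 of 14 alpha members (85.7%) and 16 of 21 gamma members (76.2%), against 62.5% of all protein-coding genes with a known strand. With either end, 11 of 22 beta members had one, against 65.8% of all protein-coding genes counted in that way. At the lower-coordinate end, which is called the start of beta genes from here on, 9 of 22 had one (40.9%). Over all 57 members this came to 37 (64.9%), near the 62.5% of all genes. The number of members with a start peak of their own in a library was 12 in replicate 1 and 13 in replicate 2 for alpha (mean 12.5 ± 0.707, SD, n = 2), 12 and 10 for beta (11 ± 1.41), and 16 and 17 for gamma (16.5 ± 0.707).

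The start peaks of the clusters were weaker than those of other genes. Their median fold was 6.86 in replicate 1 and 7.97 in replicate 2, and their median tags were 36 and 35. Over all 10924 genes with a start peak the median fold was 15.3 and 16.2, and the median tags 131 and 144. Only 12 of 57 members (21.1%) had a start peak at or above the median fold of its library in both libraries, against 49.5% of all protein-coding genes. These were Pcdhac1 and Pcdhac2 of alpha, Pcdhb1, Pcdhb6 and Pcdhb8 of beta, and Pcdhga3, Pcdhga6, Pcdhga7, Pcdhgb5, Pcdhgb6, Pcdhgc3 and Pcdhgc4 of gamma. The starts are those of the gene models. A length that is a multiple of 3, which many lengths are by chance, was found in 11 of the 22 beta models and in 21 of all 57 models. Alpha and gamma models span introns, and these counts do not show whether a model begins at its coding sequence. Whether a beta model holds coding sequence only was not tested. In 28 of the 37 members the summits of both libraries lay within 300 bp of the start.

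Of the 5 C-type genes, Pcdhgc3, Pcdhac1 and Pcdhgc4 had the highest start folds of all members in both libraries. Pcdhgc3 had 22.7-fold in replicate 1 and 24.1-fold in replicate 2, with 292 and 352 tags, in a region at 37805975 to 37807219. Pcdhac1 had 22.4 and 22.3, with 162 and 176 tags, at 37089678 to 37090432, and its summits lay at -184 and -187 bp from the start. Pcdhgc4 had 17.4 and 18.1 with 100 and 120 tags, and Pcdhac2 had 10.2 and 11.1 with 81 and 84 tags in peaks 1344 and 1492 bp wide. Pcdhgc5, the last gamma gene, had no peak at its start in either library. Its nearest shared region lay 3.09 kb inside the gene, at 37822344 to 37823055, with 18.8-fold and 18.9-fold and 291 and 315 tags (exact 95% Poisson intervals 259 to 326 and 281 to 352, counting error only). Among the other 33 members with a start peak, none exceeded 13.8-fold and 80 tags in replicate 1 or 17.4-fold and 80 tags in replicate 2. A promoter element that most members share is known to be missing from Pcdhac2, Pcdhb1, Pcdhgc4 and Pcdhgc5, a set that holds both strong starts and the start with no peak.

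The starts of Pcdha1 to Pcdha12 had low peaks or no shared peak. Of these 12 genes, 10 had a start peak, with folds of 4.09 to 7.51 in replicate 1 and 3.24 to 8.66 in replicate 2, and 16 to 40 and 13 to 43 tags. Pcdha3 had 7.43 and 8.66 on 32 and 43 tags, and Pcdha10 had 5.30 and 7.78 on 24 and 32 tags. Pcdha1, the first of the cluster, had 5.50 and 4.97 on 23 and 15 tags. At these depths the libraries could not order the genes: Pcdha2 had 40 tags in replicate 1 and 13 in replicate 2, and Pcdha5 had 22 and 40. Pcdha11 had a start peak in replicate 2 only (4.75-fold, 26 tags), and Pcdha4 had none in either library.

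Beta starts were open in the first part of the cluster and seldom in the rest. Of Pcdhb1 to Pcdhb8, 6 of 8 had a start peak, against 3 of 14 from Pcdhb9 to Pcdhb22, a division chosen after the values were seen. The strongest were Pcdhb8 (13.4-fold and 17.4-fold, 50 and 58 tags), Pcdhb1 (13.4 and 13.3, 56 and 43 tags) and Pcdhb6 (10.3 and 11.8, 32 and 36 tags). Pcdhb3 had 8.49 and 11.1, Pcdhb7 had 11.1 and 6.08, Pcdhb2 had 6.27 and 6.08, Pcdhb15 had 6.58 and 8.00 and Pcdhb17 had 5.36 and 5.76. Pcdhb22, the last of the cluster, had 4.75 and 3.75, and its summits lay 692 and 751 bp inside the gene. Single-library peaks stood at Pcdhb5, Pcdhb10 and Pcdhb11 in replicate 1 (4.39-fold, 4.70-fold and 4.08-fold, 12 to 14 tags) and at Pcdhb4 in replicate 2 (5.44-fold, 16 tags). These counts are near the fewest tags of any peak in the lists, which was 9 in each, so a start with no peak was not detectable as open at this depth. Members are related in sequence, and how reads that fit several members were treated is not given in the sources used here, so members with low or no peaks are uncertain.

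Gamma genes of the A and B types had a median start fold of 7.63 in replicate 1 and 8.03 in replicate 2, between the medians of Pcdha1 to Pcdha12 (5.24 and 5.82) and of the C type (19.9 and 20.2). Single genes crossed these groups in fold. Pcdhga7 was above the C-type gene Pcdhac2, and Pcdhga9 was below the median of Pcdha1 to Pcdha12, in both libraries. In tags Pcdhga7, with 58 and 49, was below Pcdhac2, with 81 and 84. Every Pcdhgb member had a start peak (6 of 6). The highest were Pcdhgb6 (10.3-fold and 11.1-fold, 80 and 74 tags) and Pcdhgb5 (9.39 and 10.5, 57 and 57 tags). Below them were Pcdhgb1 (9.02 and 7.97), Pcdhgb4 (6.86 and 8.33), Pcdhgb2 (6.61 and 4.09) and Pcdhgb7 (4.33 and 5.96). Pcdhgb7 was low in fold and not in tags, with 59 and 80. Of 12 Pcdhga members, 8 had one, led by Pcdhga3 (10.8 and 16.3, 62 and 77 tags), Pcdhga7 (13.8 and 11.4, 58 and 49 tags) and Pcdhga6 (10.97 and 10.7, 34 and 35 tags). Pcdhga5 had 8.40 and 8.09, Pcdhga2 had 5.97 and 4.16, and Pcdhga4 and Pcdhga9 had folds between 4.47 and 5.52. The Pcdhga12 region had its summits 1191 and 1145 bp inside the gene (4.82 and 3.27). It reached the window with the edge of its replicate 2 peak alone, and its replicate 1 peak lay outside. Pcdhga8 had a peak in replicate 2 only (4.41-fold) and Pcdhga11 in replicate 1 only (3.10-fold). Pcdhga1 and Pcdhga10 had none. Pcdhgb8, a transcribed pseudogene of the cluster and so no member, had a peak at its start in replicate 1 only (7.16-fold, 57 tags).

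A second accessible site lay inside most alpha genes. An inner peak was defined, after the summits were seen, as a shared region whose summits had their midpoint more than 1000 and up to 3000 bp inside the start, within the gene. It was present at 11 of 14 alpha members (78.6%), 9 of 22 beta members (40.9%) and 4 of 21 gamma members, against 14.6% of 14682 protein-coding genes of at least 3000 bp with a known strand. The beta count, unlike that share, also took in models shorter than 3000 bp, such as Pcdhb8 and Pcdhb21, whose inner window is cut short. Since the window was placed on these summits, the counts are a description. The models used here give no exons, and whether these sites are the CTCF sites known inside alpha variable exons was not tested.

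In alpha the inner sites fell into a nearer and a farther group. There were 16 shared inner regions in 11 genes, 5 of them with a midpoint 1424 to 1609 bp inside the start and 11 at 1909 to 2278 bp, with none between, a split at 1700 bp made after the data were seen. Pcdha4, which had no start peak, had the most tags of any alpha inner site in replicate 1, at 14.2-fold in replicate 1 and 10.2-fold in replicate 2 with 82 and 49 tags, and summits 1921 and 1896 bp inside. In replicate 2 Pcdha6 was the highest, with 8.67 and 10.5 (42 and 56 tags, 1604 and 1554 bp). Other high inner sites were those of Pcdha9 with 10.3 and 6.99 (51 and 32 tags, 1960 and 1958 bp), Pcdha5 with 7.96 and 8.97 (2016 and 1997 bp) and Pcdha12 with 9.35 and 6.79. Of the 9 alpha genes with both kinds of site, 6 had the higher fold at the inner site in both libraries, and 1, Pcdha3, had it at the start in both. Among the 6 were near ties in replicate 2. Pcdha7 had 4.80 inside on 14 tags and 4.75 at the start on 18 tags, and Pcdha5 had 8.97 and 8.54 on 41 and 40 tags. Pcdha8 had inner peaks that did not overlap between the libraries, Pcdhac1 had one in replicate 1 only (6.62-fold, 1938 bp) and Pcdhac2 had none. Every alpha gene therefore had a start peak, an inner peak or both.

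**Figure D2:**
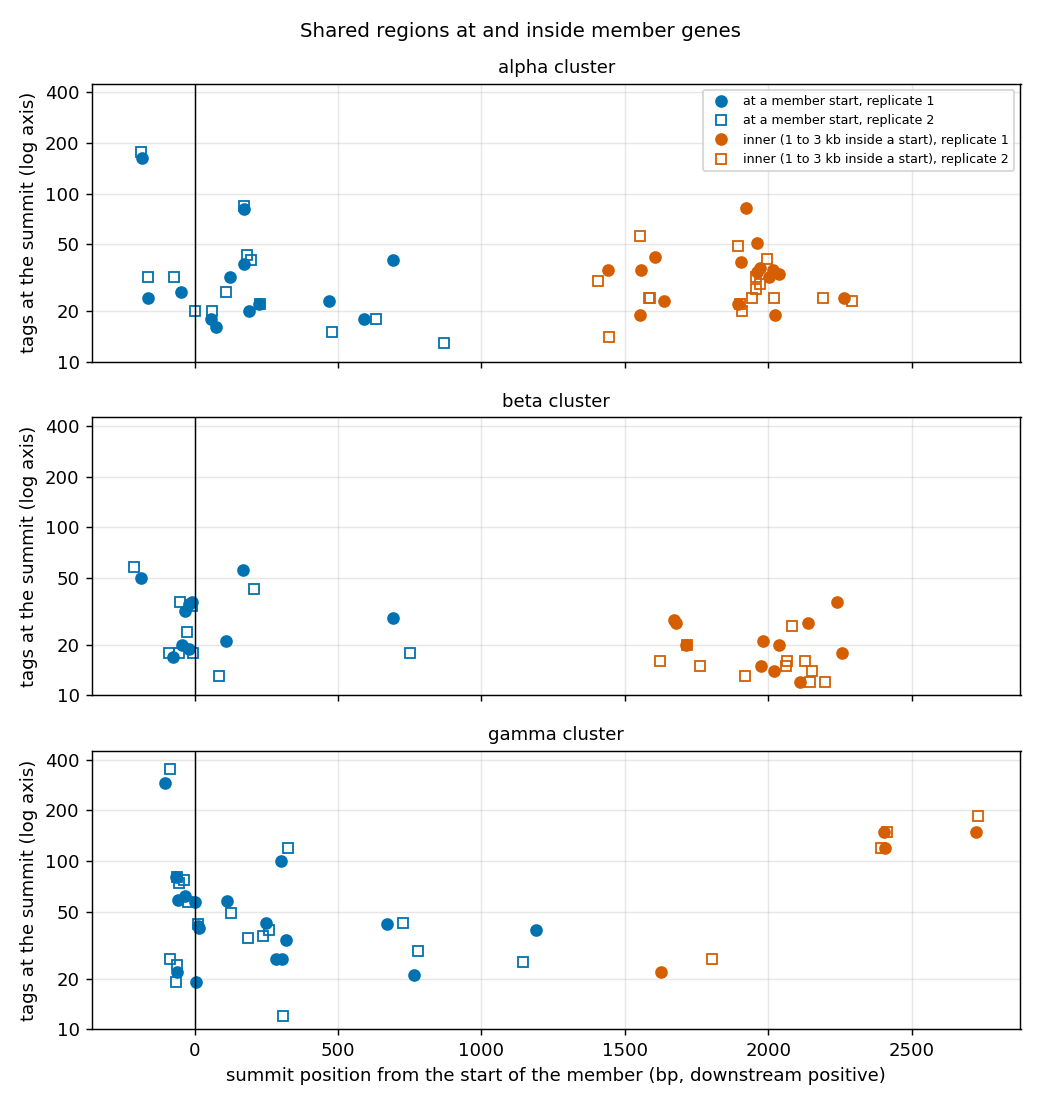
Position and height of the shared regions at member starts (blue) and inside members (orange): the horizontal axis is the summit's distance from the start in bp and the vertical axis the tags at the summit on a log axis, with filled circles for replicate 1 and open squares for replicate 2. Alpha inner regions fall into a nearer and a farther group on either side of 1700 bp, beta summits lie between 1621 and 2257 bp, and 3 gamma genes stand at 2393 bp and beyond with 120 tags or more.

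Beta inner sites were weaker and lay at similar distances. The strongest region of each of the 9 genes had 3.91-fold to 8.24-fold in replicate 1 and 4.04-fold to 5.44-fold in replicate 2, on 12 to 36 and 12 to 26 tags. Pcdhb12 (8.24 and 5.44), Pcdhb13 (7.65 and 5.44), Pcdhb11 (6.58 and 5.12), Pcdhb19 (5.96 and 5.44) and Pcdhb21 (5.67 and 5.09) had inner peaks and no start peak in both libraries, as did Pcdhb5 (4.08 and 4.16). In the 3 genes with both, Pcdhb7, Pcdhb8 and Pcdhb17, the start was higher in both libraries. Pcdhb9, Pcdhb16 and Pcdhb18 had no peak in either window in either library. In replicate 1 alone 14 beta members had an inner peak, and in replicate 2 alone 9 had one.

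Gamma inner sites were few and, at the last A-type genes, strong. Pcdhga12 had 17.9-fold and 21.4-fold with 149 and 186 tags, 2723 and 2732 bp inside its start. Pcdhga11 had 11.9 and 13.2 with 120 and 120 tags at 2405 and 2393 bp, and Pcdhga10 had 11.6 and 11.9 with 149 and 148 tags at 2403 and 2412 bp. The Pcdhga10 region, at 37749248 to 37749598, is nearer to the start of the next gene, Pcdhgb7, at 37751619. The inner sites of Pcdhga10, Pcdhga11 and Pcdhga12 lay further from the start than those of alpha, and the genes' own starts were weak or had no peak. The other gamma gene with an inner peak was Pcdhgb4 (3.29 and 4.64, 22 and 26 tags). No gamma gene before Pcdhgb4 had a shared one.

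Some of the strongest regions lay away from the starts. Within the alpha cluster a region at 37178255 to 37178880, 34.8 kb inside Pcdhac2 and at -10.4 kb from the highest alpha end, that of Pcdha6, had 19.7-fold in replicate 1 and 23.3-fold in replicate 2 with 106 and 120 tags (exact 95% Poisson intervals 86.8 to 128 and 99.5 to 143). In the gap after alpha, a region at 37218084 to 37218542, 29.4 kb beyond the end of Pcdha6 and outside every member, had 22.9 and 22.6 with 122 and 110 tags (intervals 101 to 146 and 90.4 to 133). Enhancers of the alpha cluster are known in the mouse between its last exons and downstream of them, and whether these regions are those elements was not tested. Both stood far above every start of Pcdha1 to Pcdha12.

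The region of highest fold in replicate 1 lay between beta and gamma, and in replicate 2 only the start of Pcdhgc3 was higher. It stood at 37655480 to 37656089, at -5.87 kb from the start of Pcdhga1 and outside every member, with 28.0-fold and 23.6-fold and 176 and 136 tags (exact 95% Poisson intervals 151 to 204 and 114 to 161). The same gap holds Taf7, a general transcription factor gene, whose higher-coordinate end had 18.3 and 18.96 with 256 and 261 tags, and Slc25a2, a mitochondrial carrier gene overlapped in part by a region of 7.80 and 7.76. In the shared last part of gamma, regions 9.84 kb and 16.2 kb inside Pcdhgc5 had 10.2 and 13.6 (70 and 113 tags) and 13.5 and 17.0 (66 and 117 tags). A region just beyond the gamma end, at 37842011 to 37842981, had 10.4 and 9.23 and reached within 1000 bp of both the shared gamma end and the lower-coordinate end of Diaph1, a formin gene that regulates actin. The higher-coordinate end of Diaph1 had 20.5 and 19.9 with 268 and 255 tags. Hdac3, a histone deacetylase gene whose lower-coordinate end lies at the edge of the flank, had no shared region at that end. Its higher-coordinate end lies outside the flank and was not examined. Since no strand was given, these data do not tell whether its start was open. The alpha end had no region within 1000 bp.

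Pooled over the clusters, tags in the 2 libraries were close in sum at the starts and differed more at the inner sites. Summed over the 41 start regions they were 1896 in replicate 1 and 1960 in replicate 2, a ratio of 1.03, against 1.05 over all shared regions of the series. Over the 31 inner regions they were 1239 and 1118, a ratio of 0.902, and 21 of these regions had fewer tags in replicate 2. In alpha the inner sums were 561 and 463 and in beta 238 and 175, while in gamma they were 440 and 480. The median log2 ratio of replicate 2 to replicate 1 was -0.42 at inner regions and 0.04 at start regions, against 0.03 with a spread of 0.59 (SD across regions) in the series. That spread is of single regions and does not judge a median over a set, and no test was made of this difference. By family the median log2 ratio at start regions was 0.14 in alpha, -0.06 in beta and 0.03 in gamma. At inner regions it was -0.42, -0.43 and 0.12, so gamma did not show the pooled difference. In beta, 6 of 10 start regions also had fewer tags in replicate 2.

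**Figure D3:**
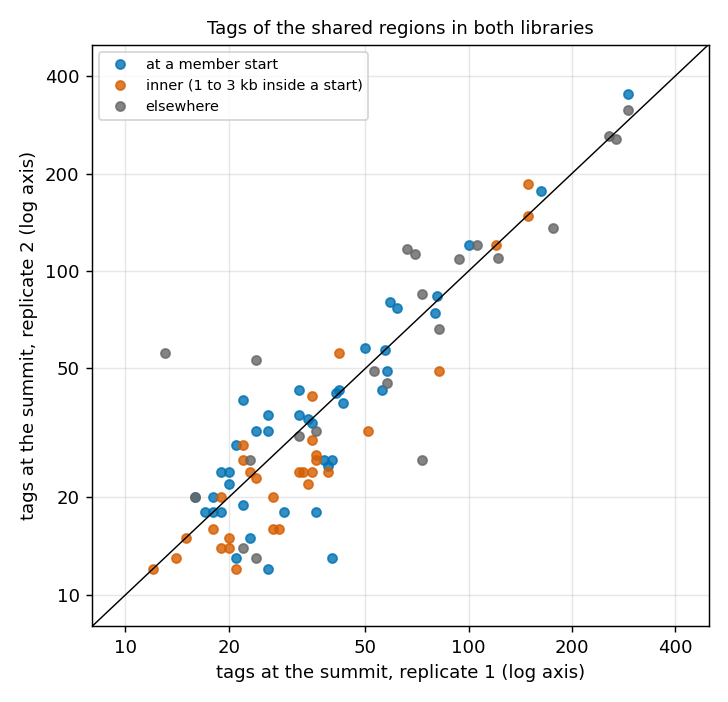
Tags at the summit of the 94 shared regions in replicate 1 (horizontal) and replicate 2 (vertical), both on log axes, with the line of equality. Most orange points, the inner regions, lie below the line (21 of 31), and the strongest regions of each kind lie close to it.

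Protocadherins outside the clusters had stronger starts by median fold, and the ranges overlapped. Of 12 such genes, 11 had a start peak, with a median fold of 12.6 in replicate 1 and 12.5 in replicate 2. Their folds ran from 4.94 to 20.7 and from 5.88 to 19.7. Start folds of the clustered members ran from 4.09 to 22.7 and from 3.24 to 24.1, with medians of 6.86 and 7.97. The highest outside were Pcdh8 (17.1 and 19.7), Pcdh17 (16.8 and 17.6), Pcdh12 (20.7 and 12.5) and Pcdh1 (15.7 and 14.0), and Pcdh9 had no start peak. Either end was used for Pcdh1, Pcdh12 and Pcdh11x, for which no strand was given, as it was for 5 genes of the regulator list, 4 of the partner list and 1 of the Ugt1a list described next. The Ugt1a genes, glucuronosyltransferases that also join alternative first exons to shared last exons, had a start peak in 1 of 9 cases, Ugt1a6a (12.5 and 8.00), while Ugt1a1, Ugt1a10 and Ugt1a2 were among the 8 with none. All counts here stand against 62.5% of all protein-coding genes at the start and 65.8% at either end. Of 17 genes known for promoter choice or silencing of the clusters, 15 had one. Among them were Lrif1 (33.4 and 35.0), whose product binds that of the silencing gene Smchd1, the cohesin release factor Wapl (25.9 and 25.9) and the histone methyltransferase gene Setdb1 (21.8 and 26.7). Smchd1 itself had 15.9 and 15.8. Dnmt1 had none within 1000 bp of its model start, and Rad21 none within 1000 bp of either end. Sites further inside these genes were not examined, so a promoter there would be missed. All 6 genes for partners of the shared intracellular part had one, led by Wasf1 (22.3 and 26.1), Ret (16.3 and 16.0), Cyfip1 (13.9 and 16.6) and Abi1 (14.3 and 14.3).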

How the data were processed

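ATAC-seq peak lists of 2 libraries of 1 group were analysed, with group and replicate taken from the titles. Per the submitters' processing notes, MACS2 2.1.1 was among the tools, with Bowtie2 2.3.4.1 as a read aligner, Trim Galore, Picard 2.18.23, deepTools 3.5.0 and bedtools 2.29.2. The same notes give mm10 and GRCm38.p3 as genome builds. Settings, the Tn5 shift and duplicate removal, which set peak edges and weak calls, are not given in the sources used here. Each sample has its own deposited peak list. Each deposited peak has a fold enrichment (a ratio), a −log10 p-value and −log10 q-value, and a deposited score that was not used; the authors' fold ranked or filtered peaks of the same library.

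Read depth was unknown. Tags were recovered as the whole number that solves fold = (tags + 1)/(background + 1) and the Poisson p-value, within 0.0001 plus a relative 1e-05 on the −log10 scale and the rounding of the deposited fold, which gave a unique solution for 100% of peaks. The steps were tested on simulated data. Genes came from RefSeq GRCm38.p6. Strand came from its promoter table for 17492 of 21887 protein-coding genes (79.9%), none on chromosome 18. The planned rule for a missing strand used either end for beta genes; the lower-coordinate end was added. Named genes were all members with start peaks (up to 12 a family) or single-library peaks, C-type and outermost members, neighbours, and the leading and missing genes of the lists; any other member named was added after its values were seen. The values of 1 listed gene are not reported here. The members and lists were chosen with earlier results of these data known. Counts have no test, since 1 group allows none. Alternatives were other windows, overlaps, thresholds, gene ends and single libraries. Python 3.11.15, pandas 2.3.3, NumPy 2.4.6, SciPy 1.17.1 and Matplotlib 3.10.9 were used.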

Additional observations from a re-analysis of the deposited data

How the results depend on the processing

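Start-peak counts depended most on the fold threshold. With peaks at or above the median fold of their library, 2 alpha, 3 beta and 7 gamma members kept a start peak, and the clusters held 4, 4 and 13 shared regions; with the 50000 peaks of highest fold the counts were 2, 3 and 6 members and 4, 4 and 12 regions. A window of 2500 bp at either end gave 17 beta members, and such a window can take in inner sites. Single libraries gave 12 to 13 alpha, 12 to 14 beta (either end) and 16 to 17 gamma members, and 38 to 40, 24 to 34 and 32 to 35 peaks in the clusters. The remaining settings, namely a 500 bp window, 50% overlap, −log10 q of at least 5, both summits in the window and the other choice of gene end, stayed within 1.5 times the reported counts; either end gave 21 gamma members, whose shared end has a region beside it. At or above the median fold the inner peaks numbered 1 in alpha, 0 in beta and 3 in gamma. No paired analysis was possible because there is 1 group.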

Other observations

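In the gap between beta and gamma a region at 37618487 to 37619027 had 4.39-fold and 13 tags in replicate 1, against 18.2-fold and 56 tags in replicate 2. A region inside Diaph1, at 37879984 to 37880514, differed the other way, with 18.1-fold and 73 tags in replicate 1 and 8.64-fold and 26 tags in replicate 2.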
